A study of Mus musculus with 6 samples.

Results

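Solute carriers, the genes whose symbols start with Slc followed by a family number, encode the membrane proteins that move amino acids, sugars, metabolites, nucleosides, vitamins and ions into cells and between their compartments. The members described here are the symbols of the deposited table that start with Slc and a digit, apart from those that contain -ps, os or -as and apart from the carriers and subunits Slc40a1, Slc11a1, Slc2a1, Slc2a3, Slc16a3, Slc7a11, Slc7a5 and Slc3a2. Of 227 symbols of that form, 13 were left out, which gave 214 members in 45 families among 15443 genes. They were chosen by symbol alone, under a rule set with earlier results of these data known. All 214 matched a single entry of the GENCODE M21 annotation on GRCm38, and all are protein coding there. The symbol rule also takes in a few proteins that are no carriers themselves: Slc9a3r1 and Slc9a3r2 are scaffold proteins of the sodium/proton exchangers, and Slc4a1ap is an adaptor protein.

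The superfamily contains uniporters, exchangers and carriers coupled to sodium or protons, and a family number groups carriers of related sequence that often share a class of substrate. Family 25 sits mostly in the inner mitochondrial membrane, family 35 in the Golgi and endoplasmic reticulum, and several members of families 15, 29, 36 and 38 in lysosomes. In macrophages and dendritic cells (DC), lysosomal carriers return amino acids, nucleosides, sugars and heme from digested material to the cytosol, and zinc and iron carriers control the metal supply of the phagosome.

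RNA came from bone marrow cells of C57BL/6J wild-type mice, a laboratory inbred strain. All 6 cultures received FLT3LG at 50 ng/ml, the cytokine that drives DC development, for 3 days. In 3 of them recombinant human midkine, a heparin-binding growth factor, was added at 10 ng/ml (midkine replicates 3, 4 and 5), and the other 3 had FLT3LG alone (control replicates 1, 2 and 4). The cultures were unsorted, and nothing in the labels tells whether a replicate is a mouse, a culture or a repeat of the same RNA. The p-values below therefore speak only of the spread among these 6 libraries, and that spread may be technical. The QuantSeq 3′ kit used for the libraries reads about 1 fragment per transcript near its 3′ end, so values are normalized counts not scaled to gene length.

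The libraries held 5985684 to 7233960 reads. One library, midkine 5, lay far from the rest. On principal component 1 of all tested genes, with 57.1% of the variance, it scored 86.0 and the other 5 between -28.2 and 1.94. Mitochondrial ribosomal RNA made up 0.377% of its reads. That share was 4.12% in midkine 3, 4.69% in midkine 4 and 4.91 to 6.16% in controls. Summed over 12 neutrophil markers, the libraries held 181225 to 195588 normalized counts with midkine and 126894 to 141873 in controls, and 9 markers had higher values in every midkine library. Over 12 monocyte and macrophage markers the sums were 61089 to 99527 with midkine and 46162 to 48155 in controls, with 7 markers higher and 2 lower without overlap. Over 12 conventional DC markers they were 15765 to 18494 with midkine and 15459 to 17135 in controls, with 1 marker higher and 8 lower. Of all tested genes, 15.5% were higher and 15.3% lower without overlap. For plasmacytoid DC markers the sums were 4843 to 5287 with midkine and 5784 to 6634 in controls. Markers of mast cells, basophils and eosinophils summed to 1768 to 2765 with midkine and 999 to 1253 in controls, those of B cells to 1254 to 2735 with midkine and 1189 to 1669 in controls, and those of stroma and endothelium to 815 to 1567 with midkine and 1287 to 1632 in controls. Of 12 erythroid markers, 7 had a value, and these summed to 158 to 222 with midkine and 82.1 to 126 in controls. In such bulk RNA, more cells of a type and more RNA per cell cannot be told apart, and the part of these shifts in the values of the carriers was not tested.

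Summed together, the members took a larger share of the reads in every midkine library. The 214 members made up 0.768%, 0.783% and 0.879% of the reads in midkine 3, 4 and 5, against 0.712%, 0.682% and 0.695% in control 1, 2 and 4. All 3 midkine shares lay above all 3 control shares. Outside mitochondrial ribosomal RNA the shares were 0.801%, 0.822% and 0.882% with midkine and 0.748%, 0.727% and 0.737% in controls, again without overlap. Summed normalized counts of the members averaged 51726 ± 5317 with midkine and 43434 ± 694 in controls (SD, n = 3 each). Abundant members weigh most in such sums and shares. Slc39a1 averaged 3142 ± 2483 normalized counts with midkine, with 6002 in midkine 5, and 1184 ± 101 in controls. In the other direction, Slc29a3 averaged 1724 ± 523 with midkine and 2016 ± 240 in controls. With these groups of 3 an exact permutation test cannot go below a two-sided p of 0.10, so none is given.

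Of the 214 members, 192 had a mean of at least 5 normalized counts over the 6 libraries and were tested, and 22 lay below that minimum. Just outside it were Slc22a17 and Slc32a1, both with a mean of 4.42, and just inside it Slc22a3 with 5.40 and Slc18a1 with 5.65. Among the tested members, Slc22a3, Slc18a1, Slc13a3 and Slc45a3 had a control mean under 5 and entered through their midkine values. Over all 6 libraries none entered the other way. The fit without midkine 5 kept the same genes, and there Slc34a1, with 0.967 and 4.22 in midkine 3 and 4, stayed in through its controls. Slc13a3 and Slc45a3 are among the members counted below as higher without overlap. Slc45a3 is among those called higher and Slc34a1 among those called lower without midkine 5. Apart from Slc45a3 and Slc34a1, the members named here were named after their values were seen. In limma on log2(normalized count + 1), with p-values adjusted over all 13543 tested genes, 0 members passed the threshold of 0.05 and 0.0% of all tested genes did. The smallest adjusted p of a member was 0.0757, that of Slc45a3, the next 0.0788, and the smallest of any gene 0.0523. An unadjusted p under 0.05 was reached by 42 members with higher and 11 with lower values, 21.9% and 5.73% of the tested members, against 10.4% and 9.3% of all tested genes. In edgeR on the recovered reads 0 members passed, where 0.0738% of all tested genes did, 0.0443% as higher and 0.0295% as lower, and an unadjusted p under 0.05 was reached there by 42 members with higher and 12 with lower values, where 11.2% and 8.86% of all tested genes reached it. In DESeq2, 15 members passed as higher and 1 as lower of 169 with an adjusted p, which is 8.88% and 0.592%, against 3.97% and 1.95% of all genes, or 5.92% in either direction.

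The values of the 3 midkine libraries lay above all 3 controls in 53 tested members and below all 3 in 16, which is 27.6% and 8.33% of them. Over all tested genes, 15.5% lay above and 15.3% below. The log2 fold change (midkine minus control) was positive in 133 of the 192 tested members, 69.3%, against 49.6% of all tested genes, and its median was 0.21, against -0.0040 over all tested genes. Taken 1 library at a time against the control mean, the median was 0.14, 0.23 and 0.31 in midkine 3, 4 and 5. Without midkine 5, limma called 35 members higher and 12 lower, 18.2% and 6.25%, against 9.92% and 8.52% of all tested genes, and the median was 0.14. All 47 of these calls were also among the 50 made by edgeR on the same 5 libraries, where 10.5% of all tested genes were called higher and 7.88% lower, and they include all 16 of DESeq2's calls on 6. In 38 of the 47, 80.9%, the groups did not overlap with midkine 5 included, against 72.0% of the 2497 calls over all tested genes. In 41 of the 47 midkine 5 differed from the control mean in the same direction as midkine 3 and 4. Both counts use the same controls as the calls and are no independent check, and for the 41 no share over all tested genes is given. The members with an all-library limma adjusted p under 0.09 lay on GRCm38 at chr1:131962967-131982969, + strand (Slc45a3), chr1:125560595-125595820, + strand (Slc35f5), chr9:15709738-15743361, + strand (Slc36a4), chr19:10839727-10859362, + strand (Slc15a3), chr16:92058322-92087473, + strand (Slc5a3) and chr15:100387898-100425072, - strand (Slc11a2). Below, "passed" refers to limma without midkine 5 at an adjusted p under 0.05 unless another fit is named, and log2 fold changes without such a mention come from limma on all 6 libraries, with their standard error. Group values given as mean ± SD are over the 3 libraries of a group. Counts for a role or list below are to be read beside the shares over all tested genes. These are 15.5% higher and 15.3% lower without overlap, and 9.92% and 8.52% that passed as higher and as lower.

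**Figure D1:**
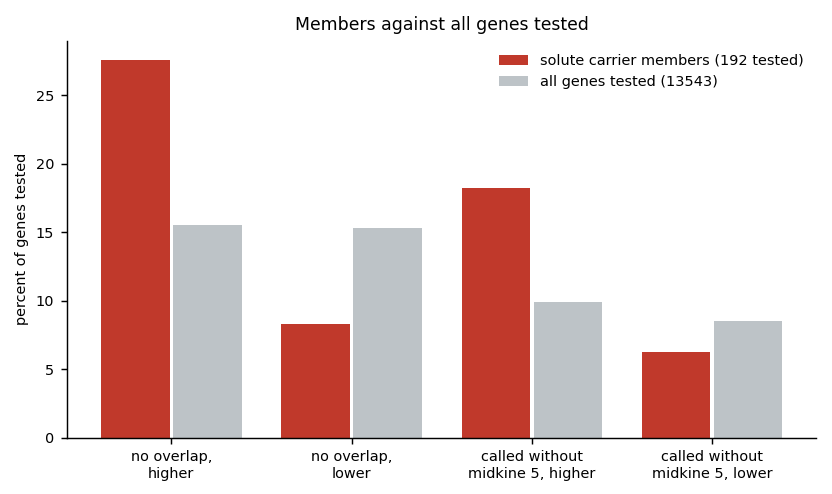
Percentage of tested genes whose groups do not overlap, and that limma called without midkine 5, in each direction, for the 192 tested members (left bars) and all 13543 tested genes (right bars). On the higher side the members' bars reach 27.6% and 18.2%, against 15.5% and 9.92% of all tested genes, and on the lower side 8.33% and 6.25%, against 15.3% and 8.52%.

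**Figure D2:**
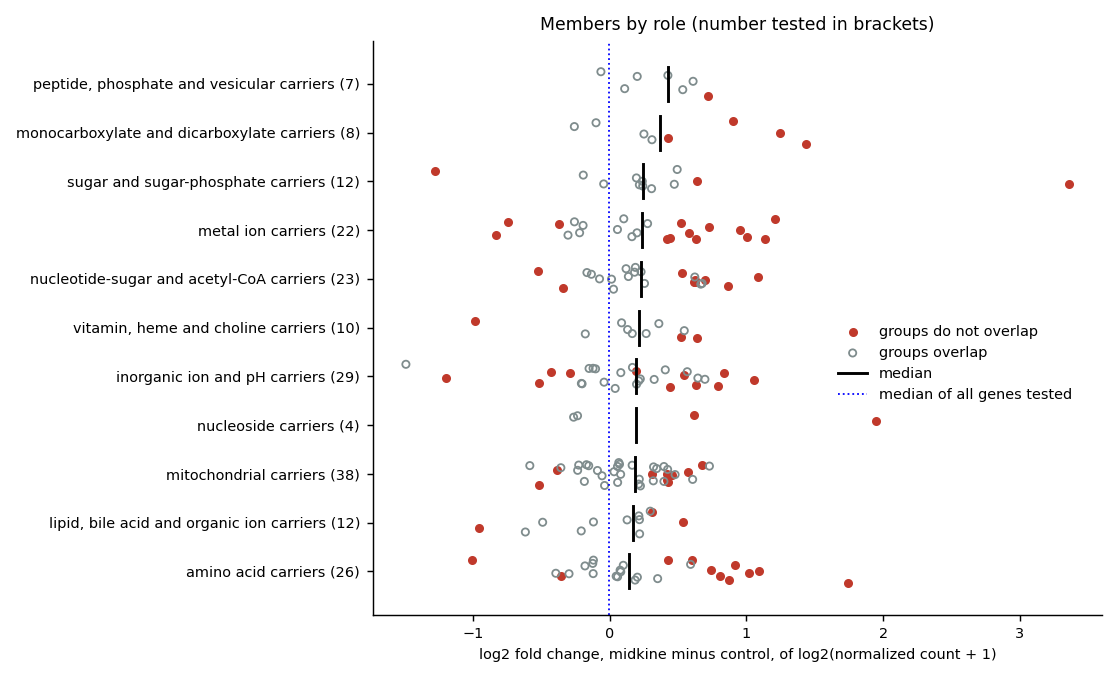
Log2 fold change, midkine minus control, on the scale of log2(normalized count + 1) for each tested member, by role. Filled points are members whose 3 midkine and 3 control libraries do not overlap, black bars are the median of a role, and the dotted line is the median of all genes tested. Every role drawn has a median above that line, and Slc14a1, alone in its role, is not drawn. The point furthest to the right is Slc45a3, near 0 in controls.

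Among promoters of the members, 4 motifs were searched on both strands. They were a palindromic E-box, CACGTG, which factors of the MYC, TFEB and MITF families bind and which is known from lysosomal genes; the core of the metal response element, TGCNCNC; that of the antioxidant response element, TGACNNNGC; and GAGGAAGT, bound by PU.1. RefSeq windows on GRCm38.p6, from 250 bases before to 50 bases after each listed start, were available for 165 of the 214 members, and a gene was counted if any of its windows held the motif. CACGTG was in 29 members, 17.6%, against 11.9% of the 9582 tested genes with a window and 8.09% of all 27025 genes with one. It was in 6 of the 26 members with a window that passed as higher without midkine 5, 23.1%, and in 0 of the 8 that passed as lower. TGACNNNGC was in 24.2% of the members and 16.9% of the tested genes, with 7 of the 26 and 4 of the 8. GAGGAAGT was in 3.64% of the members and 4.21% of the tested genes, with 0 of the 26 and 0 of the 8. TGCNCNC was in 62.4% of the members and 63.2% of the tested genes, with 18 of the 26 and 4 of the 8. The 6 members with CACGTG are Slc36a1, Slc33a1, Slc39a11, Slc41a3, Slc12a7 and Slc29a1. In the last 4 of these the match is near an alternative RefSeq start inside the gene as GENCODE annotates it. For Slc36a1 and Slc33a1 it lies before a start close to the annotated one, and these stretches are shown 5′ to 3′ on the gene's strand, with 20 bases on either side of the match in capitals.
Slc36a1: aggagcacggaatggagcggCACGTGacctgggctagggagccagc
Slc33a1: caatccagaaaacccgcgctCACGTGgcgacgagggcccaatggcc
They lie on GRCm38.p6 at chr11:55204289-55204334 (+ strand) and chr3:63964833-63964878 (- strand), and the matches begin 31 and 125 bases before the RefSeq start of Slc36a1 and Slc33a1. The window of Slc36a1 holds 2 matches, and the other, which does not end before the start, is not shown. A match is a description of the letters and not evidence of binding.

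Of the factors that bind such E-boxes, Myc had 52.2, 53.8 and 42.7 normalized counts in midkine 3, 4 and 5, against 99.5, 101 and 68.1 in control 1, 2 and 4. All 3 midkine libraries were below all controls (log2 fold change -0.83 ± 0.23, without midkine 5 -0.72 with a limma adjusted p of 0.0174). Mitf, a factor of lysosome and pigment genes, had 503, 662 and 394 normalized counts in midkine 3, 4 and 5, against 313, 279 and 374 in control 1, 2 and 4. Its groups did not overlap and midkine 4 was the highest (log2 fold change 0.67 ± 0.22, without midkine 5 0.85 with a limma adjusted p of 0.000445). Tfeb, the main factor of lysosomal genes, had 412, 361 and 859 normalized counts in midkine 3, 4 and 5, against 341, 384 and 376 in control 1, 2 and 4. Its groups overlapped, with midkine 5 far above the rest (log2 fold change 0.46 ± 0.303, without midkine 5 0.07 with a limma adjusted p of 0.709). Its relative Tfe3 overlapped as well, with a log2 fold change of -0.198 ± 0.17. Tfeb and Tfe3 were named after their values were seen.

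Amino acid carriers were among the members with the largest differences, and most of those whose groups were apart were higher with midkine. Of 26 tested members of families 1, 6, 7, 36, 38 and 43, 9 were higher and 2 lower without overlap, and 9 passed as higher and 1 as lower. Their median log2 fold change was 0.14. Slc7a1 and Slc1a4, the second named after its values were seen, were the 2 that were lower. Slc7a8, the exchanger LAT2 for neutral amino acids, had 382, 629 and 1342 normalized counts in midkine 3, 4 and 5, against 229.7, 188 and 197 in control 1, 2 and 4. Every midkine library was above every control, and midkine 5 was the highest by far (log2 fold change 1.74 ± 0.39, limma adjusted p = 0.09201, and 1.26 with an adjusted p of 7.08e-05 without midkine 5). Slc7a7, the exchanger y+LAT1 that releases cationic amino acids and whose loss in humans causes lysinuric protein intolerance, had 86.04, 101 and 90.8 normalized counts in midkine 3, 4 and 5, against 51.3, 61.4 and 36.5 in control 1, 2 and 4. The groups did not overlap and the midkine libraries were close together (log2 fold change 0.91 ± 0.23, limma adjusted p without midkine 5 = 0.00666). Its last exon overlaps Oxa1l on the opposite strand, and the strand setting of the counting is not given in the sources used here.

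The proton-coupled family 36 differed in the same direction. Slc36a4 had 230.1, 322 and 282 normalized counts in midkine 3, 4 and 5, against 120.0, 133 and 155 in control 1, 2 and 4. All 3 midkine libraries were well above the controls (log2 fold change 1.02 ± 0.19, limma adjusted p = 0.0788 with all 6 libraries and 0.000349 without midkine 5). Slc36a1, the lysosomal amino acid exporter PAT1 with an E-box printed above, had 236, 326 and 575 normalized counts in midkine 3, 4 and 5, against 189, 191 and 197 in control 1, 2 and 4. Its midkine values were spread, with midkine 5 the highest, and none reached down to the controls (log2 fold change 0.88 ± 0.295, limma adjusted p without midkine 5 = 0.0149). Slc36a1 was named after its values were seen. Slc43a2, the facilitative carrier LAT4 for branched-chain and aromatic amino acids, was the most abundant member of the group by count, with 2736 ± 328 normalized counts with midkine and 2029 ± 102 in controls (SD, n = 3 each). It passed, with a log2 fold change of 0.53 and a limma adjusted p of 0.0009498 without midkine 5.

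Slc6a6, the sodium-coupled taurine carrier, had 2307, 2787 and 2275 normalized counts in midkine 3, 4 and 5, against 1691, 1587 and 1561 in control 1, 2 and 4. The groups were clearly apart, and the difference was nearly the same with and without midkine 5 (log2 fold change 0.601 and 0.65, limma adjusted p = 0.1003 and 0.000351). The creatine carrier Slc6a8 averaged 141 ± 23.2 normalized counts with midkine and 80.8 ± 19.2 in controls (SD, n = 3 each) and passed, as did Slc7a2, an arginine carrier of activated macrophages, with 46.6 ± 17.4 normalized counts with midkine and 26.7 ± 5.19 in controls. Both were named after their values were seen. Slc1a3, a glutamate carrier, was low, with 21.3, 12.7 and 9.98 normalized counts in midkine 3, 4 and 5, against 6.15, 5.11 and 6.904 in control 1, 2 and 4. Its groups did not overlap and midkine 3 was the highest (log2 fold change 1.09 ± 0.39, limma adjusted p without midkine 5 = 0.0432).

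Other amino acid importers were lower or did not differ beyond the spread. Slc7a1, the main cationic amino acid importer CAT1, had 448, 367 and 356 normalized counts in midkine 3, 4 and 5, against 505, 456 and 536 in control 1, 2 and 4. All midkine libraries were below all controls, but the margin was small (log2 fold change -0.36 ± 0.16, limma adjusted p = 0.259 with all 6 libraries and 0.0955 without midkine 5). Slc38a2, the sodium-coupled carrier SNAT2 that cells raise when amino acids are short, had 673, 607 and 832 normalized counts in midkine 3, 4 and 5, against 905, 756 and 925 in control 1, 2 and 4. Midkine 5 lay among the controls, while the other midkine libraries were below them, and it passed as lower (log2 fold change without midkine 5 -0.43, limma adjusted p = 0.01302). The glutamine carriers Slc1a5 and Slc38a1 had log2 fold changes of 0.18 ± 0.21 and 0.099 ± 0.17, less than the spread between libraries. Slc38a2, Slc1a5 and Slc38a1 were named after their values were seen.

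**Figure D3:**
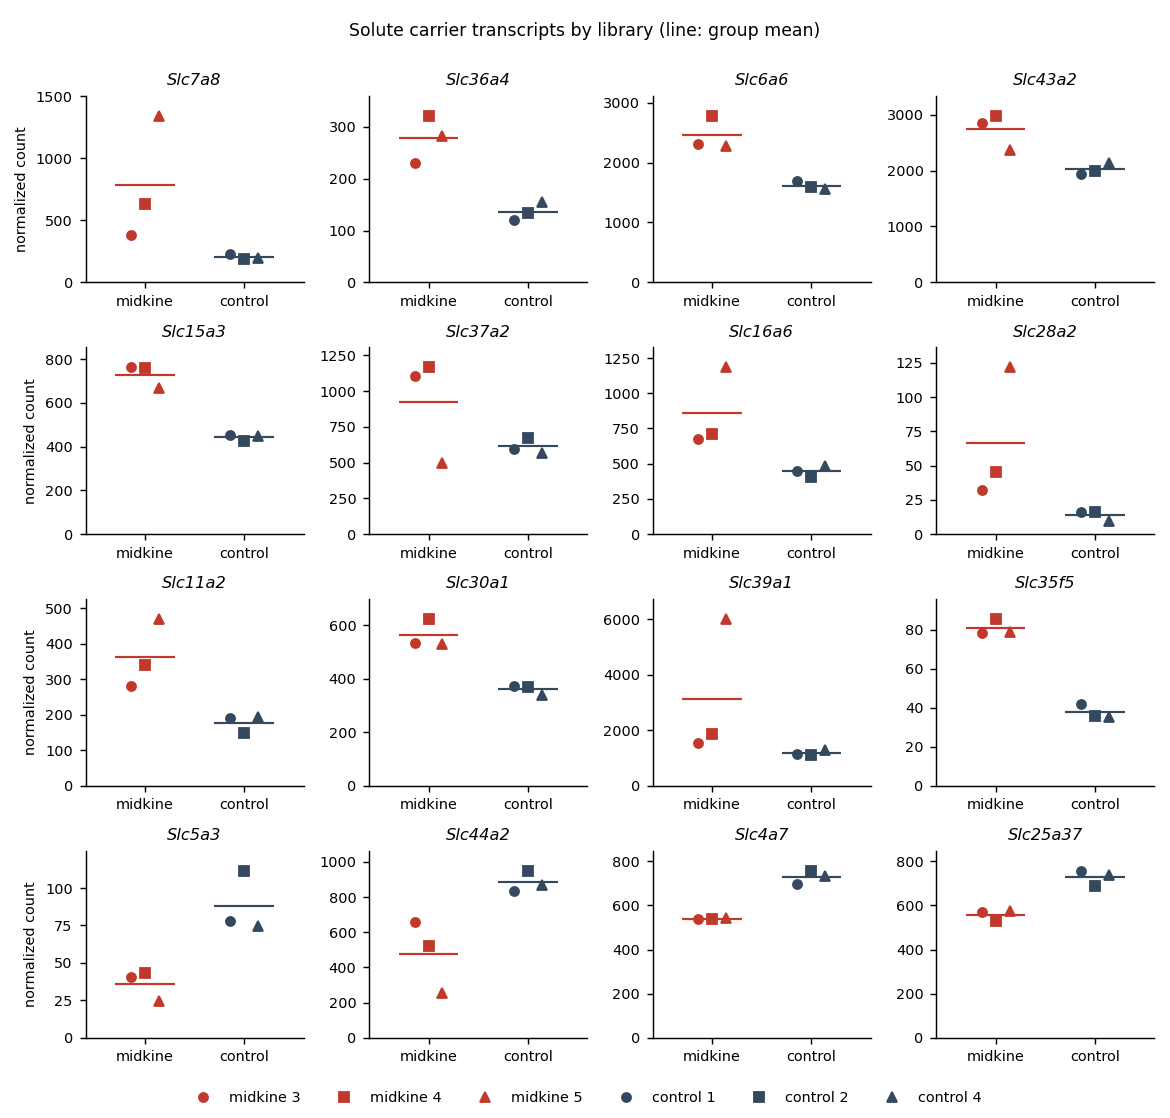
Normalized counts of 16 members in each library, 1 panel per gene with its own linear axis from 0, the midkine libraries to the left of the controls and a line at each group's mean. In Slc15a3, Slc30a1 and Slc35f5 the midkine libraries lie close together above the controls, in Slc7a8, Slc28a2 and Slc39a1 midkine 5 is far above the rest, and in Slc37a2 it is below the controls.

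Families 15, 17 and 18 include lysosomal and vesicular carriers of peptides, sialic acid and transmitters. Of 7 tested members, 1 was higher without overlap, 2 passed as higher, and the median log2 fold change was 0.42. Slc15a3, the lysosomal histidine and peptide carrier PHT2, had 763, 758 and 667 normalized counts in midkine 3, 4 and 5, against 453, 425 and 449 in control 1, 2 and 4. The groups were far apart with little spread within either, and it was among the smallest p-values of all members (log2 fold change 0.72 ± 0.14, limma adjusted p = 0.0788 with all 6 libraries and 7.72e-05 without midkine 5, DESeq2 adjusted p = 0.00268). Its last exon overlaps Tmem132a on the opposite strand. Its relative Slc15a4, PHT1, which is needed for nucleic acid sensing in plasmacytoid DC, had 845, 841 and 1298 normalized counts in midkine 3, 4 and 5, against 1045, 1119.8 and 902 in control 1, 2 and 4. Midkine 3 and 4 were below the controls and midkine 5 above them, so the groups overlapped (log2 fold change -0.06 ± 0.203). Slc17a5, the lysosomal sialic acid exporter sialin, had 181, 178 and 91.7 normalized counts in midkine 3, 4 and 5, against 92.3, 109 and 95.7 in control 1, 2 and 4. Midkine 3 and 4 were well above the controls and midkine 5 was not (log2 fold change 0.53 ± 0.28, and 0.85 with a limma adjusted p of 0.000689 without midkine 5), and this gene was named after its values were seen.

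Among 4 tested nucleoside carriers, Slc28a2 and Slc29a1 were higher without overlap and passed, and the other 2 overlapped. Slc28a2, the concentrative carrier CNT2 for purine nucleosides, had 31.9, 45.4 and 122 normalized counts in midkine 3, 4 and 5, against 16.4, 16.4 and 9.86 in control 1, 2 and 4. Every midkine library was above every control and midkine 5 was well above the rest (log2 fold change 1.94 ± 0.48, limma adjusted p = 0.105 with all 6 libraries and 0.00578 without midkine 5). The equilibrative carrier Slc29a1, ENT1, averaged 403 ± 93.97 normalized counts with midkine and 258 ± 26.8 in controls (SD, n = 3 each) and also passed (log2 fold change 0.62 ± 0.200, limma adjusted p without midkine 5 = 0.0244), and was named after its values were seen. Slc29a3, the lysosomal carrier ENT3 whose loss causes histiocyte disorders in humans, had 2249.5, 1721 and 1203 normalized counts in midkine 3, 4 and 5, against 2080.0, 2217 and 1751 in control 1, 2 and 4. The groups overlapped, with midkine 5 the lowest (log2 fold change -0.26 ± 0.23).

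Iron, zinc and magnesium carriers were among the members whose groups were apart. Of 22 tested members of families 11, 30, 31, 39 and 41, 10 were higher and 3 lower without overlap, which is 45.5% and 13.6%, and 6 passed as higher and 2 as lower. Their summed counts were 5628, 6149 and 10603 in midkine 3, 4 and 5, against 4929, 4698 and 5142 in control 1, 2 and 4. All midkine sums were above all control sums, and midkine 5 was the highest.

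Slc11a2, the divalent metal carrier DMT1 that moves ferrous iron out of endosomes, had 282, 339 and 469 normalized counts in midkine 3, 4 and 5, against 191, 148 and 194 in control 1, 2 and 4. No midkine library overlapped the controls (log2 fold change 1.01 ± 0.22, limma adjusted p = 0.08904 with all 6 libraries and 0.000857 without midkine 5). Slc41a3, a carrier of the magnesium family 41, had 82.2, 114 and 169.7 normalized counts in midkine 3, 4 and 5, against 50.3, 46.02 and 54.2 in control 1, 2 and 4. All 3 midkine values were above the controls and differed among themselves, with midkine 5 the highest (log2 fold change 1.21 ± 0.27, limma adjusted p without midkine 5 = 0.00309). Its family member Slc41a2 averaged 145 ± 23.4 normalized counts with midkine and 88.6 ± 23.5 in controls and passed as well, and Slc41a1 did not, with a log2 fold change of -0.195 ± 0.25 (both named after their values were seen).

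Zinc carriers belong to families 30 and 39. Family 30 exports zinc from the cytosol, and of its 6 tested members Slc30a1, Slc30a4 and Slc30a6 were higher and 0 were lower without overlap, Slc30a4 and Slc30a6 being named after their values were seen. Slc30a1, the exporter ZnT1 of the plasma membrane, had 536, 623 and 528 normalized counts in midkine 3, 4 and 5, against 374, 370.2 and 339 in control 1, 2 and 4. The midkine libraries were all above the controls by a similar margin (log2 fold change 0.63 ± 0.15, limma adjusted p = 0.0934 with all 6 libraries and 0.0005203 without midkine 5). Slc30a1 is a textbook target of MTF1, the zinc-sensing factor, and its promoter stretch before the start is shown with a match to the core TGCNCNC of the metal response element, on the opposite strand, in capitals, at chr1:191906718-191906764 on GRCm38.p6, + strand.
Slc30a1: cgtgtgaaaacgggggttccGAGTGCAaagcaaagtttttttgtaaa
The match begins 43 bases before the RefSeq start, and, as given above, the same core is about as common among all tested genes as among the members. Mtf1 itself had 163, 210.1 and 192 normalized counts in midkine 3, 4 and 5, against 154, 169.8 and 163 in control 1, 2 and 4. Its groups overlapped, and the log2 fold change was 0.21 ± 0.17, and it was named after its values were seen.

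Family 39 brings zinc into the cytosol, and of its 10 tested members Slc39a1, Slc39a9 and Slc39a11 were higher and Slc39a6, Slc39a10 and Slc39a14 lower without overlap, with 2 passing in each direction. Slc39a9 was named after its values were seen. Slc39a1, the surface importer ZIP1, had 1549, 1875 and 6002 normalized counts in midkine 3, 4 and 5, against 1138, 1114 and 1299 in control 1, 2 and 4. All midkine libraries were above the controls, and midkine 5 was far above midkine 3 and 4, so that the log2 fold change was 1.13 ± 0.45 with all 6 libraries and 0.53 without it (limma adjusted p = 0.222 and 0.00261). Slc39a11 averaged 655 ± 119 normalized counts with midkine and 434 ± 19.2 in controls and passed as higher (limma adjusted p without midkine 5 = 0.00915, named after its values were seen). On the lower side, Slc39a6, which forms a pair with Slc39a10 at the cell surface, had 537, 469 and 243 normalized counts in midkine 3, 4 and 5, against 705, 609.5 and 809.7 in control 1, 2 and 4. No midkine library reached the controls and midkine 5 was the lowest (log2 fold change -0.83 ± 0.29, limma adjusted p without midkine 5 = 0.00961). Its partner Slc39a10 had 266, 241 and 213 normalized counts in midkine 3, 4 and 5, against 306, 353 and 276 in control 1, 2 and 4. These values were also lower without overlap, but did not pass (log2 fold change -0.37 ± 0.17, limma adjusted p without midkine 5 = 0.127). Slc39a14, an importer of zinc, manganese and iron, averaged 28.9 ± 6.39 normalized counts with midkine and 49.1 ± 10.2 in controls (SD, n = 3 each) and passed as lower (limma adjusted p without midkine 5 = 0.0143). The copper importer Slc31a1 had a log2 fold change of 0.102 ± 0.15, and was named after its values were seen.

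**Figure D4:**
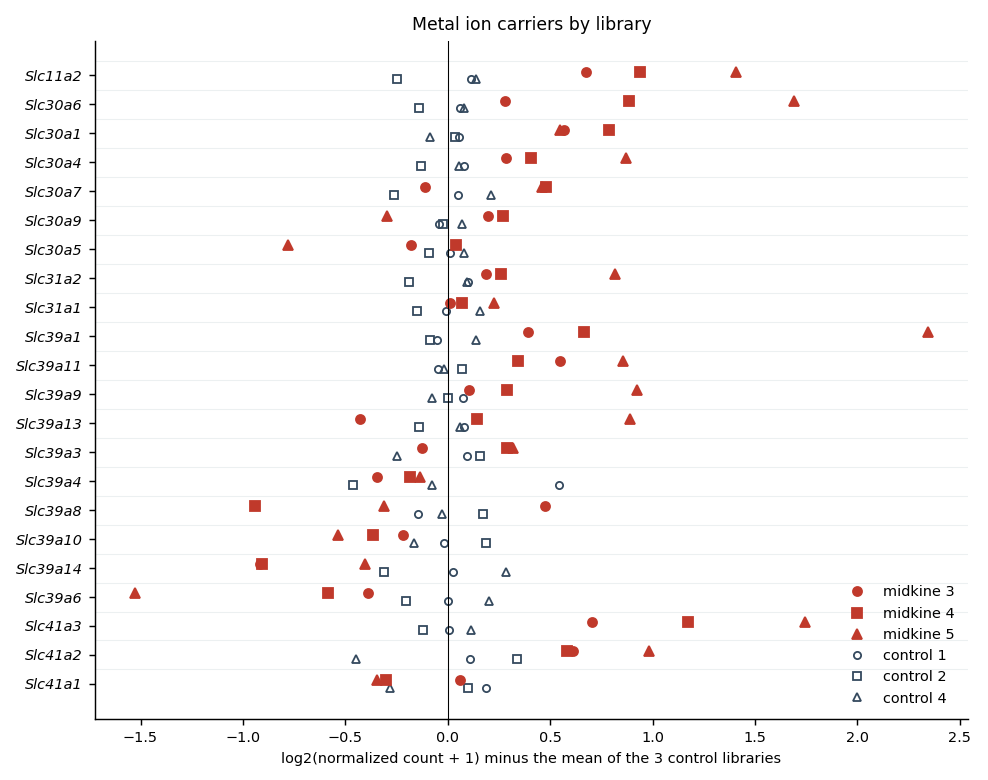
Log2(normalized count + 1) of the 22 tested metal carriers in each library, less the mean of the 3 controls of the same gene, with filled points for midkine and open points for control libraries. Slc30a1 lies above 0 in all 3 libraries and Slc39a6, Slc39a10 and Slc39a14 lie below 0 in all 3, while Slc39a1 lies far higher in midkine 5 than in midkine 3 and 4.

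Among sugar and sugar-phosphate carriers, the myo-inositol carrier Slc5a3 was lower with midkine and the macrophage carrier Slc37a2 higher in midkine 3 and 4. Of 12 tested members, 2 were higher and 1 lower without overlap, and the same numbers passed, 16.7% and 8.33% in either count. Slc45a3 is 1 of the 2 higher members in both counts and adds no support to either. Of all tested genes, 15.5% and 15.3% were higher and lower without overlap, and 9.92% and 8.52% passed. Slc45a3, a member of the proton-coupled sugar family, had 11.6, 20.1 and 23.6 normalized counts in midkine 3, 4 and 5, against 1.03, 0 and 1.97 in control 1, 2 and 4. It was near or at 0 in controls and above 10 in every midkine library. It entered the test only through its midkine values, and its fold change would depend on the added count of 1, so none is given and its calls support nothing here. Slc5a3, the sodium-coupled myo-inositol carrier that serves osmotic balance, had 40.6, 43.3 and 24.5 normalized counts in midkine 3, 4 and 5, against 77.95, 111 and 74.95 in control 1, 2 and 4. Each midkine library was far below every control, and it was the 1 member that DESeq2 called lower (log2 fold change -1.28 ± 0.28, limma adjusted p = 0.0884 with all 6 libraries and 0.00198 without midkine 5, DESeq2 adjusted p = 0.00702). Its exons overlap those of Mrps6 on the same strand.

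Slc37a2, a sugar-phosphate carrier of the endoplasmic reticulum that is abundant in macrophages and osteoclasts, had 1109, 1166 and 496 normalized counts in midkine 3, 4 and 5, against 597, 675 and 570.1 in control 1, 2 and 4. Midkine 3 and 4 were almost equal and far above the controls, while midkine 5 was below all of them. The log2 fold change was 0.49 ± 0.31 with all 6 libraries and 0.89 without midkine 5, where the limma adjusted p of 3.44e-05 was the smallest of the members. Slc2a6, the lysosomal glucose carrier GLUT6, had 83.1, 49.6 and 224 normalized counts in midkine 3, 4 and 5, against 84.1, 61.4 and 108 in control 1, 2 and 4. Midkine 5 was far above the other libraries, and the log2 fold change was 0.24 ± 0.496 with it and -0.35 without. The fructose and urate carrier Slc2a9 averaged 36.8 ± 5.86 normalized counts with midkine and 23.3 ± 3.06 in controls and was higher without overlap, but did not pass (limma adjusted p without midkine 5 = 0.189, named after its values were seen).

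The 8 tested members of families 13 and 16 are grouped here as monocarboxylate and dicarboxylate carriers by family number, whatever the substrate of each. They had a median log2 fold change of 0.37, and 4 were higher and 0 lower without overlap, while 2 passed as higher. Slc16a6, MCT7, which exports ketone bodies from the liver in zebrafish, had 678, 711 and 1184 normalized counts in midkine 3, 4 and 5, against 445, 404 and 485 in control 1, 2 and 4. The groups did not overlap and midkine 5 was the highest (log2 fold change 0.902 ± 0.23, limma adjusted p = 0.1102 with all 6 libraries and 0.000611 without midkine 5). Its last exon overlaps Amz2 on the opposite strand. Slc16a9, MCT9, had 36.7, 38.002 and 9.08 normalized counts in midkine 3, 4 and 5, against 19.5, 20.5 and 16.8 in control 1, 2 and 4. Midkine 3 and 4 were above the controls and midkine 5 below them, and it passed with midkine 5 left out (log2 fold change 0.31 and, without midkine 5, 0.95, limma adjusted p = 0.02105). The pyruvate carrier Slc16a7, MCT2, had 61.9, 87.6 and 29.95 normalized counts in midkine 3, 4 and 5, against 51.3, 72.6 and 54.2 in control 1, 2 and 4. Midkine 5 was the lowest library and midkine 4 the highest, and it did not pass. Slc16a1, MCT1, the general lactate and pyruvate carrier, had a log2 fold change of -0.26 ± 0.21, within the spread between libraries. Slc13a2, a citrate and succinate carrier, was low, at 19.1 ± 8.22 normalized counts with midkine and 6.08 ± 1.84 in controls (SD, n = 3 each), higher without overlap and did not pass (limma adjusted p without midkine 5 = 0.0856), and with Slc16a1 was named after its values were seen. The others higher without overlap were Slc16a10, at 490.1 ± 93.5 normalized counts with midkine and 361 ± 25.3 in controls, and Slc13a3, at 7.74 ± 1.195 normalized counts with midkine and 4.02 ± 3.48 in controls, and neither passed. Slc13a3 entered the test only through its midkine values, and both were named after their values were seen.

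The mitochondrial family 25 was the largest. Of 38 tested members, 7 were higher and 2 lower without overlap, 18.4% and 5.26%, against 15.5% and 15.3% of all tested genes. Of the same 38, 3 passed as higher and 4 as lower, 7.89% and 10.5%, against 9.92% and 8.52% of all tested genes. The phosphate carrier Slc25a3 averaged 2161 ± 174 normalized counts with midkine and 1927 ± 93.5 in controls, with a log2 fold change of 0.16 ± 0.14, and the ADP/ATP exchanger Slc25a4 had a log2 fold change of 0.06 ± 0.14, both within the spread between libraries. The other main ADP/ATP exchanger, Slc25a5, had 909.7, 1194 and 1764 normalized counts in midkine 3, 4 and 5, against 831, 830.4 and 681 in control 1, 2 and 4. It was higher without overlap and passed (limma adjusted p without midkine 5 = 0.0243), but near-identical pseudogene copies exist and the authors' counting could split its reads, so its value is uncertain. Slc25a44, the branched-chain amino acid carrier, had 255, 261 and 262 normalized counts in midkine 3, 4 and 5, against 182, 189 and 197 in control 1, 2 and 4. The 3 midkine libraries were nearly equal and all above the controls (log2 fold change 0.45 ± 0.14, limma adjusted p without midkine 5 = 0.0187).

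On the lower side, Slc25a37, mitoferrin-1, which brings iron into the mitochondrion for heme synthesis, had 571, 528 and 575 normalized counts in midkine 3, 4 and 5, against 757, 690.3 and 737 in control 1, 2 and 4. All midkine libraries were below all controls by a similar margin (log2 fold change -0.38 ± 0.14, limma adjusted p without midkine 5 = 0.0108). Slc25a32, a folate and FAD carrier, had 167, 160.5 and 136 normalized counts in midkine 3, 4 and 5, against 243, 221 and 202 in control 1, 2 and 4. It was also lower without overlap and passed (log2 fold change -0.52 ± 0.17, limma adjusted p without midkine 5 = 0.0297). The aspartate/glutamate carrier Slc25a12 and the glutathione carrier Slc25a40 passed as lower without midkine 5, with log2 fold changes of -0.51 and -0.84, and in both midkine 5 lay among the controls. Slc25a24, which exchanges ATP-magnesium for phosphate, passed as higher with 0.52, and its midkine 5 value was below the controls. Slc25a4, Slc25a5, Slc25a12, Slc25a24 and Slc25a40 were named after their values were seen.

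Of 23 tested members of families 33 and 35, carriers mostly of the secretory pathway, 18 had a positive log2 fold change. That is 78.3%, against 69.3% of all tested members and 49.6% of all tested genes. Without overlap, 7 were higher and 2 lower, 30.4% and 8.7%, against 15.5% and 15.3% of all tested genes. Only 2 passed as higher and 1 as lower, 8.7% and 4.35%, below the 9.92% and 8.52% of all tested genes. Slc35f5, whose substrate is not established, had 78.3, 85.5 and 78.97 normalized counts in midkine 3, 4 and 5, against 42.1, 35.8 and 35.5 in control 1, 2 and 4. The midkine values were nearly equal and far above the controls, and its DESeq2 adjusted p was 0.00594 (log2 fold change 1.08 ± 0.19, limma adjusted p = 0.0788 with all 6 libraries and 0.001103 without midkine 5). Slc33a1, the acetyl-CoA carrier of the endoplasmic reticulum whose E-box is printed above, averaged 158 ± 34.6 normalized counts with midkine and 96.2 ± 12.5 in controls (SD, n = 3 each) and passed (limma adjusted p without midkine 5 = 0.0312, named after its values were seen). Slc35c2, linked to fucosylation of Notch, had 238, 224 and 235 normalized counts in midkine 3, 4 and 5, against 294, 364 and 350.1 in control 1, 2 and 4. All midkine libraries were below all controls and close together (log2 fold change -0.53 ± 0.15, limma adjusted p without midkine 5 = 0.00643). Slc35e3 had a log2 fold change of -0.34 ± 0.15 and was lower without overlap but did not pass. Slc35b1, the ATP/ADP exchanger of the endoplasmic reticulum and the most abundant of the group by count, averaged 491 ± 68.9 normalized counts with midkine and 428 ± 26.4 in controls, with a log2 fold change of 0.19 ± 0.16.

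Among 29 tested carriers of inorganic ions and pH, 7 were higher and 4 lower without overlap, and 5 passed as higher and 2 as lower. Slc26a11, a sulfate and chloride carrier of lysosomes and the cell surface, had 102, 159 and 93.5 normalized counts in midkine 3, 4 and 5, against 48.2, 73.6 and 46.4 in control 1, 2 and 4. The groups did not overlap, and midkine 4 was the highest (log2 fold change 1.05 ± 0.28, limma adjusted p without midkine 5 = 0.00125). Slc24a5, the sodium/calcium exchanger known from pigment cells, averaged 165 ± 51.8 normalized counts with midkine and 89.05 ± 6.36 in controls and passed (limma adjusted p without midkine 5 = 0.0163), and its last exon overlaps Myef2 on the opposite strand. The potassium/chloride carrier Slc12a7 averaged 126 ± 32.4 normalized counts with midkine and 70.8 ± 5.54 in controls and passed (limma adjusted p without midkine 5 = 0.0256, named after its values were seen). The scaffold Slc9a3r1 had 261, 296 and 345 normalized counts in midkine 3, 4 and 5, against 181, 213 and 185 in control 1, 2 and 4. It was higher without overlap and passed (log2 fold change 0.63 ± 0.17, limma adjusted p without midkine 5 = 0.00909).

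Slc4a7, the sodium bicarbonate carrier NBCn1 that supports phagosome acidification in macrophages, was on the lower side, with 538, 540.5 and 542 normalized counts in midkine 3, 4 and 5, against 695, 757 and 736 in control 1, 2 and 4. The 3 midkine values were nearly identical and all below the controls (log2 fold change -0.43 ± 0.13, limma adjusted p without midkine 5 = 0.00641). Slc34a1, the phosphate carrier best known from kidney, was low, with 0.967, 4.22 and 14.5 normalized counts in midkine 3, 4 and 5, against 11.3, 21.5 and 11.8 in control 1, 2 and 4. Midkine 3 and 4 were below the controls and midkine 5 among them, and it passed as lower (log2 fold change -1.49 ± 0.71, and -2.25 with a limma adjusted p of 0.00673 without it). Without midkine 5, Slc34a1 stayed in the test only through its control values, and its fold change depends on the added count of 1. This call, counted above among those that passed as lower, therefore supports nothing here. Slc9a9, an exchanger of endosomes, passed as higher without midkine 5, with a log2 fold change of 0.46, and midkine 5 was the lowest of the 6 libraries. The sodium/chloride carrier Slc12a3 averaged 8.096 ± 3.03 normalized counts with midkine and 19.2 ± 2.12 in controls, lower without overlap, and did not pass (limma adjusted p without midkine 5 = 0.0517). Both were named after their values were seen. Slc12a9 and the adaptor Slc4a1ap were lower without overlap and did not pass, with log2 fold changes of -0.29 ± 0.15 and -0.52 ± 0.26.

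Of 10 tested carriers of vitamins, heme and choline, 2 were higher and 1 lower without overlap, and 1 passed in each direction. Slc46a3, a lysosomal carrier named after its values were seen, was higher at 103 ± 19.7 normalized counts with midkine and 71.6 ± 12.7 in controls and did not pass. Slc23a2, the ascorbate carrier SVCT2, had 122, 134 and 145 normalized counts in midkine 3, 4 and 5, against 85.1, 87.9 and 82.8 in control 1, 2 and 4. The controls were almost equal and all below the midkine libraries (log2 fold change 0.64 ± 0.17, limma adjusted p without midkine 5 = 0.0158). Slc44a2, a choline carrier-like protein known from human neutrophils as an antigen, had 657, 521 and 256 normalized counts in midkine 3, 4 and 5, against 835, 949 and 868 in control 1, 2 and 4. All midkine libraries were below all controls, midkine 5 the most (log2 fold change -0.99 ± 0.31 with all 6 libraries, -0.59 with a limma adjusted p of 0.00153 without midkine 5). Slc48a1, HRG1, which carries heme out of the phagolysosome, was the most abundant of all members by count, at 2555 ± 195 normalized counts with midkine and 2341 ± 279 in controls (SD, n = 3 each). Its groups overlapped (log2 fold change 0.13 ± 0.15), and its last exon overlaps Hdac7 on the opposite strand.

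Of 12 tested carriers of lipids, bile acids and organic ions, 2 were higher and 1 lower without overlap. That is 16.7% and 8.33%, against 15.5% and 15.3% of all tested genes. Only 1 passed as higher, 8.33%, against 9.92% of all tested genes. That was Slc10a3, a member of the bile acid family without a known substrate, at 96.8 ± 10.8 normalized counts with midkine and 66.8 ± 9.85 in controls (SD, n = 3 each), with a limma adjusted p of 0.0229 without midkine 5. Its last exon overlaps Ubl4a on the same strand. The fatty acid transport protein Slc27a4 was higher without overlap and did not pass, with a log2 fold change of 0.31 ± 0.15. Slc10a1, a bile acid carrier known from liver and named after its values were seen, was lower without overlap at 8.76 ± 0.797 normalized counts with midkine and 20.01 ± 11.6 in controls and did not pass. The urea carrier Slc14a1, the only tested member outside the groups above, had 134, 100.3 and 54.5 normalized counts in midkine 3, 4 and 5, against 86.2, 98.2 and 87.8 in control 1, 2 and 4. Midkine 5 was the lowest library and midkine 3 the highest, and the groups overlapped.

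The 22 members under the minimum had means of 0.781 to 4.42 normalized counts, and none was tested. In 2 of them, Slc39a12 and Slc32a1, every midkine library was above every control, and in Slc4a4, Slc9b1 and Slc28a3 every midkine library was below, and these 5 were named after their values were seen. At a few reads per library these values lie near the limit that a count of 0 allows, 3 reads per library. Slc32a1, the vesicular carrier of inhibitory transmitters, reached 8.7003, 7.39 and 6.35 normalized counts in midkine 3, 4 and 5, against 3.08, 1.02 and 0 in control 1, 2 and 4.

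Midkine 5 differed from midkine 3 and 4 in both directions. It was above both in 105 of the tested members, 54.7%, against 43.8% of all tested genes, and below both in 63. With a mean of at least 20, the 3 members furthest above were Slc12a4, Slc39a1 and Slc2a6, and the 3 furthest below Slc16a9, Slc16a7 and Slc37a2. Slc12a4, the potassium/chloride carrier KCC1, had 55.1, 64.4 and 218 normalized counts in midkine 3, 4 and 5, against 70.8, 44.998 and 56.2 in control 1, 2 and 4. Midkine 3 and 4 lay among the controls and midkine 5 far above them (log2 fold change 0.696 ± 0.48, and 0.08 without midkine 5).

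Carriers that bear other symbols were taken from a list of 30, of which 26 were in the table and 23 were tested. Of these, 6 were higher and 1 lower without overlap, and 4 passed as higher and 1 as lower. Mfsd1, a lysosomal dipeptide carrier, had 2260.2, 3016 and 4442 normalized counts in midkine 3, 4 and 5, against 1544, 1469 and 1494 in control 1, 2 and 4. Each midkine library was far above the controls, midkine 5 the most (log2 fold change 1.05 ± 0.23, limma adjusted p without midkine 5 = 0.000145). Slco2b1, an organic anion carrier of macrophages, had 127, 169 and 94.4 normalized counts in midkine 3, 4 and 5, against 41.03, 64.4 and 34.5 in control 1, 2 and 4. The groups did not overlap and midkine 4 was the highest (log2 fold change 1.47 ± 0.299, limma adjusted p without midkine 5 = 0.000114). Tmem104, an amino acid carrier-like protein, averaged 238 ± 3.42 normalized counts with midkine and 124 ± 13.5 in controls, and Flvcr1, a choline and heme carrier, 326 ± 33.6 normalized counts with midkine and 202 ± 9.49 in controls (SD, n = 3 each), with limma adjusted p-values without midkine 5 of 0.000226 and 0.000973. The 1 that passed as lower was Slco3a1, at 294 ± 105 normalized counts with midkine and 449 ± 31.7 in controls, where midkine 5 was just below the lowest control, and it was named after its values were seen. Of 21 tested partners and regulators of carriers from a list of 25, 4 were higher and 1 lower without overlap, and the same numbers passed. Those that passed were the scaffold Slc9a3r1, which is also a member, with Mitf, Ostm1 and the macrophage factor Spic as higher and Myc as lower. Spic had 186, 239 and 137 normalized counts in midkine 3, 4 and 5, against 135, 99.2 and 140 in control 1, 2 and 4. Its groups overlapped, and it passed with midkine 5 left out. Ostm1, the subunit of a lysosomal chloride exchanger, had 257, 252 and 221 normalized counts in midkine 3, 4 and 5, against 193, 190.2 and 190.3 in control 1, 2 and 4. The controls were almost equal and all below the midkine libraries (log2 fold change 0.35 ± 0.15, limma adjusted p without midkine 5 = 0.0262). Basigin (Bsg), the partner of monocarboxylate carriers, had 591, 599 and 1463 normalized counts in midkine 3, 4 and 5, against 613, 607 and 572 in control 1, 2 and 4, which overlapped apart from midkine 5, and Atf4, the factor of the amino acid response, had a log2 fold change of 0.01 ± 0.21. Spic, Bsg and Atf4 were named after their values were seen.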

How the data were processed

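RNA was measured with 3′ sequencing in 6 libraries, and the authors deposited a table with 1 normalized count (a signal value of 0 or more) for each gene and library. Per the submitters' processing notes, reads were processed with TopHat2 2.0.10 and Bowtie 1.0.0 on GRCm38 (mm10), and SAMtools 0.1.19, FastQC 0.11.0, HTSeq and DESeq2 are also listed. Which annotation was used, whether counting kept strand and how multiply mapped reads were treated is not given in the sources used here. Within a library all values are multiples of a common step, from which whole reads were recovered for 100% of values, within a tolerance of 0.01 reads. Depth was 5985684 to 7233960 reads per library, and 0 columns of per-sample values were left unused. Floors of 3 reads cover counting error only.

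limma 3.58.1 (with trend, in R 4.3.3) was run on log2(normalized count + 1) for the 13543 genes with a mean of at least 5, two-sided, with Benjamini-Hochberg adjustment over all of them and a threshold of 0.05. Fold changes on this scale understate the change of low genes. As alternatives, edgeR's quasi-likelihood test (4.0.16, TMM) and DESeq2 1.42.0 were run on the recovered reads; DESeq2 left 45 members without an adjusted p. The scripts were tested on simulated data. In all, 16 alternatives changed the pseudocount (0.5, 5), filter, scaling, test, weights or libraries, and edgeR without midkine 5 was added after seeing the data.

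The members, roles and gene lists were chosen with earlier results of these data known. Roles follow the family number. Named members are, per direction, the 15 with the smallest p among members that average 20 or more without overlap between groups; the most abundant member and the one with the smallest p of each role; those called by edgeR, or by limma without midkine 5 with an absolute log2 fold change of at least 1; and the 3 in which midkine 5 deviates most in each direction. This gave 47 members. Of each other list, the rule names the 4 genes with the smallest p. Genes outside these rules are said to be named after their values were seen. A few single-gene results are not reported here. Promoter sequences are from RefSeq (GRCm38.p6) and gene positions from GENCODE M21. Figures were drawn with matplotlib 3.10.9.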

Additional observations from a re-analysis of the deposited data

How the results depend on the processing

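The median log2 fold change of the tested members stayed positive in every alternative, from 0.14 without midkine 5 to 0.25 without midkine 3. Against 0 members called higher and 0 called lower by limma with all 6 libraries, DESeq2 called 15 and 1, array weights 60 and 26 (where 19.1% and 18.4% of all tested genes were called), and edgeR without midkine 5, a setting chosen after seeing the data, 38 and 12. Leaving out 1 library at a time, limma called 0 to 35 higher and 0 to 12 lower, and every such call came without midkine 5. Members with an unadjusted p under 0.05 numbered 72 higher and 32 lower with array weights, against 42 and 11, and edgeR without midkine 5 gave 20 lower. Leaving out 1 library, they ranged from 28 to 51 higher and from 5 to 20 lower, with 5 without control 1, 7 without midkine 4 or control 4 and 20 without midkine 5. With 1 library left out, members whose groups did not overlap ranged from 59 to 75 higher and from 17 to 30 lower, since fewer libraries overlap less easily. For the counts by unadjusted p and by overlap under these settings, no shares over all tested genes are given. They therefore say nothing particular to the members. Apart from the main fit, the count of members without overlap was computed only for the filter settings and with 1 library left out. It was not computed with TMM scaling or quantile normalization, which can change the order of values between libraries. Of 796 values of named members under alternatives, 659 kept direction and call, 116 gained a call and 21 in 6 members changed sign. Slc14a1 moved to 0.00492 with TMM, 0.079 with edgeR, 0.086 with DESeq2, 0.21 with array weights and 0.38 with edgeR without midkine 5, and ranged from -0.29 to 0.36 leaving out 1 library (0.053 without control 2). Slc16a7 moved to 0.0058 with DESeq2, 0.53 with array weights and 0.33 with edgeR without midkine 5, and ranged from -0.44 to 0.32 leaving out 1 library (0.051 without control 2). Slc2a6 moved to -0.61 with array weights, -0.33 with edgeR without midkine 5 and from -0.35 without midkine 5 to 0.72 without midkine 4. Slc15a4 had -0.27 without midkine 5 and 0.037, 0.040 and 0.00352 without midkine 3, midkine 4 and control 2, Slc16a9 had 0.95 without midkine 5 and -0.00107 and -0.0249 without midkine 3 and midkine 4, and Slc48a1 had -0.0092 with quantile normalization. The cause was not tested. No paired analysis was possible because the groups share only replicate number 4. Depth limits the 22 members under a mean of 5, which were not tested.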
